A study of Homo sapiens with 14 samples.

Results

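The TRAIL receptor family was followed through 14 RNA-seq libraries of IMR90 cells, which are human lung fibroblasts. Its 5 members, out of 54628 gene symbols counted, are the ligand TRAIL (TNFSF10) and the 4 membrane receptors TNFRSF10A (DR4), TNFRSF10B (DR5), TNFRSF10C (DcR1) and TNFRSF10D (DcR2). They were taken by name, as the complete set of membrane receptors and their ligand, with their levels in all 14 libraries already in view. The levels of the members and the differences between groups are therefore descriptions, and no test was made on them.

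TRAIL is a ligand of the tumour necrosis factor superfamily, made mainly by immune cells and induced by interferons. DR4 and DR5 carry an intracellular death domain that recruits the adaptor FADD and the protease caspase-8, which starts apoptosis. DcR1 is tethered to the membrane by a lipid anchor and has no intracellular part, DcR2 has a truncated death domain, and both bind TRAIL without passing on a death signal, which is why they are called decoys. Osteoprotegerin (TNFRSF11B) is a secreted receptor that binds TRAIL as well as the bone ligand RANKL. DR5 is a known target of the stress factor CHOP (DDIT3), and DcR2 has been used as a marker of senescent cells.

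The libraries form 6 labelled groups. Untreated wild-type cells (WT, 2 libraries) and untreated cells with an HMGB2 knockdown by siRNA (siHMGB2, 2 libraries) were not given the inducer. Wild-type cells made senescent with 10 µM inflachromene for up to 6 days (ICM, 4 libraries), and cells given the same treatment with a knockdown of SRRM2, BANF1 or CTCF (siSRRM2, siBANF1 and siCTCF, 2 libraries each), make up the rest. Inflachromene is a small molecule that binds HMGB1 and HMGB2. HMGB2 is a chromatin protein, SRRM2 a scaffold of nuclear speckles, BANF1 a DNA-binding protein of the nuclear envelope and CTCF an organiser of chromatin loops. All cells were primary fibroblast isolates at passage 5. The labels name no non-targeting siRNA and do not say whether libraries of a group came from separate cultures, so every p-value below measures only the spread between these samples. ICM 3, ICM 4 and the siCTCF libraries carry labels of another form than the other 10 and were treated as a second set (ICM 3-4, siCTCF), compared within itself. Their source name and cell line fields run from IMR91 to IMR94, while their titles and protocols give IMR90, as which they were taken here. WT libraries carry the labels of the first set only, so in ICM 3-4 against WT the set and the treatment cannot be told apart.

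Several libraries stood apart or went against their labels. ICM 1 and ICM 2 differed from each other, with the cell cycle inhibitor CDKN1A at 1529 and 6974 CPM (its counts scaled to the gene counts of the library), against 1186 and 1225 CPM in WT. The libraries labelled siBANF1 differed in the same way, at 1520 and 7743 CPM, so the members' levels in these 2 groups are given per library. SRRM2 was lowest in the libraries labelled siBANF1, at 24.8% and 15.1% of the same-numbered ICM library, and stood at 32.0% and 68.0% in those labelled siSRRM2. BANF1 was at 125% and 112% in the libraries labelled siBANF1, so the data go against that label. In those labelled siSRRM2 it was at 253% and 102%, so neither label group had BANF1 below its ICM libraries. The deposited files of these 4 libraries are named for the other knockdown of SRRM2 and BANF1. Whether the 2 labels are exchanged cannot be told from the labels, and directions given for these 4 libraries rest on the labels alone. HMGB2 fell to 11.5% and 12.6% of WT in siHMGB2, and CTCF was at 75.4% and 25.0% of ICM in siCTCF. Gene counts ranged from 22336161 to 58257456 per library. Reads given to no gene made up 35.2% in ICM 1 and 26.5% in ICM 2, and 41.8% and 28.4% in siBANF1 1 and 2. Their share was 17.5% and 17.9% in WT, 16.9% and 18.0% in siHMGB2, and 29.3% and 30.1% in the libraries labelled siSRRM2. In ICM 3-4 and siCTCF it was 12.8% to 14.3%. Whether this share bears on the low levels in ICM 1 and siBANF1 1 was not tested. Fibroblast markers were above 1 CPM for 8 of 8 genes, but their summed level was 17742 to 24119 CPM in WT, 3937 to 11084 CPM in ICM 1-2 and 2034 to 4196 CPM in ICM 3-4. None of 4 epithelial markers passed 1 CPM. KRT5 was at 0 in every library, and the summed epithelial level was 0.329 to 0.864 CPM in WT, 0.276 to 0.840 CPM in ICM 1-2 and 0 to 0.0394 CPM in ICM 3-4. Of 6 leukocyte markers only CD68 passed 1 CPM, while CD3E and NKG7 were at 0. The summed leukocyte level, nearly all CD68, was 39.3 to 39.5 CPM in WT, 58.4 to 82.9 CPM in ICM 1-2 and 94.95 to 103.9 CPM in ICM 3-4. CD68 is also a lysosomal protein. Of 4 endothelial markers VWF and KDR passed 1 CPM, with summed levels of 7.27 to 7.36 CPM in WT, 0.369 to 2.62 CPM in ICM 1-2 and 0.0788 to 0.878 CPM in ICM 3-4. The part these shifts play in the members' levels was not tested. In bulk RNA, fewer expressing cells and less RNA per cell cannot be told apart.

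The 4 receptor genes lie side by side on the short arm of chromosome 8, and the RefSeq annotation of GRCh38.p14 places no other protein-coding gene between them. TNFRSF10B occupies chr8:23020133-23069031 on the minus strand, TNFRSF10C chr8:23102921-23117445 on the plus strand, TNFRSF10D chr8:23135588-23164027 on the minus strand and TNFRSF10A chr8:23190452-23225102 on the minus strand. The cluster spans 205.0 kb. No stretch of 50 bases in the exons of one receptor occurs in another (0% in GENCODE v29), so exact 50-base matches do not mix the receptors. TNFRSF10C is the least certain of them. It shares 39.7% of its 50-base stretches with the overlapping gene models AC107959.4 and AC107959.5, where the counting may have set reads aside or divided them. The exons of TNFRSF10A overlap those of its antisense gene TNFRSF10A-AS1 by 224 bases, and whether strand was used in counting is not given in the sources used here, so reads there cannot be told apart.

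TNFSF10 lies elsewhere, at chr3:172505508-172523430 on the minus strand. The 250 bases before its start (RefSeq, GRCh38.p14, chr3:172523431-172523680, minus strand, 49.6% GC) are shown because the ligand was the 1 member that was lower after treatment. Capitals mark a match to the core of the interferon-stimulated response element and a TATA box, read 5′ to 3′ towards the gene.

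TNFSF10: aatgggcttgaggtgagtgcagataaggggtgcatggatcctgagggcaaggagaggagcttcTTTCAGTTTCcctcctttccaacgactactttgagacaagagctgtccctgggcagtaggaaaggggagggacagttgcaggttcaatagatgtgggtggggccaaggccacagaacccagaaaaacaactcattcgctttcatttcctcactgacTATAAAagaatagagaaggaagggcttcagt

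The response element was searched, on both strands, as GAAA, 2 bases of any kind and GAAA. Its match begins at position -187, counted back from the start, on the opposite strand, and 3.02% of the 35116 promoter windows of the same length hold 1. TATAAA begins at -31 and occurs in 10.7% of windows. These searches also covered both strands. The GC box GGGCGG (42.6% of windows) has no match in this window. The motifs found do not overlap each other. A match is a description of the letters, not of a bound factor.

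Ligand mRNA was scarce everywhere and scarcest after treatment. TNFSF10 was counted 27 and 38 times in the WT libraries and 31 and 12 times in siHMGB2. ICM 1 to 4 held 8, 0, 0 and 3 counts, the libraries labelled siSRRM2 5 and 5, those labelled siBANF1 1 and 2, and siCTCF 1 and 3. A count of 0 allows up to 3 counts, or 0.0553 CPM in ICM 2 and 0.125 CPM in ICM 3. Every one of the 10 treated libraries, at 0 to 0.164 CPM, lay below every one of the 4 untreated libraries, at 0.292 to 1.04 CPM. How many of all genes separate these 10 libraries from these 4 was not computed.

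Summed over libraries, the ligand stood at 0.0836 of its WT level in ICM 1-2 (8 against 65 counts, 95% Clopper-Pearson interval 0.0346 to 0.175) and at 0.0656 in ICM 3-4 (3 against 65 counts, 0.0132 to 0.200). These intervals cover counting error only and, with the ligand chosen on values already in view, are not a test. In siHMGB2 the ratio to WT was 0.592 (0.393 to 0.883), but 1 siHMGB2 library lay within the WT range and the other below it. Against their ICM controls the ratios were 1.42 (0.505 to 4.14) in the libraries labelled siSRRM2, 0.396 (0.0676 to 1.65) in those labelled siBANF1 and 1.34 (0.226 to 9.13) in siCTCF. These intervals too leave out the spread between libraries, so neither a difference nor its absence is read from them. All 5 members passed the filter on low counts. The ligand passed through the untreated libraries, so its passing carries no information about the treated ones.

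The death receptor DR4 was a low-level transcript in untreated cells. TNFRSF10A was at 3.84 and 4.00 CPM in WT, at 5.41 and 4.69 CPM in siHMGB2, at 10.0 and 43.6 CPM in ICM 1 and ICM 2, and 31.5 and 53.9 CPM in ICM 3 and ICM 4. The libraries labelled siSRRM2 held 44.4 and 39.9 CPM, those labelled siBANF1 8.98 and 39.4 CPM and siCTCF 26.0 and 53.2 CPM. All 10 treated libraries exceeded all 4 untreated ones, a separation whose share over all genes was not computed. The lowest of the treated, ICM 1 and siBANF1 1, were also the 2 with the least CDKN1A. In order of group means WT was lowest, then siHMGB2 without overlap, then siBANF1, ICM 1-2, siCTCF, siSRRM2 and ICM 3-4, of which each overlapped the next. The mean ratio to WT was 6.83 in ICM 1-2 (log2 fold change 2.59 ± 0.70, SE of the fit) and 10.9 in ICM 3-4 (3.19 ± 0.72). ICM 1 alone gave 1.29 and ICM 2 alone 3.26 on the log2 scale.

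DR5, the more abundant death receptor, moved less in proportion. TNFRSF10B was at 280 and 285 CPM in WT, 254 and 258 CPM in siHMGB2, 404 and 696 CPM in ICM 1 and 2, and 719 and 791 CPM in ICM 3 and 4. The libraries labelled siSRRM2 held 634 and 631 CPM, those labelled siBANF1 143 and 399 CPM and siCTCF 673 and 753 CPM. Treated libraries lay above the untreated range of 254 to 285 CPM with 1 exception, siBANF1 1, which was the lowest of all 14. In order of means siHMGB2, siBANF1 and WT came first and overlapped in turn, and ICM 1-2 followed without overlap. The siSRRM2 group came next and overlapped ICM 1-2, and siCTCF and ICM 3-4, which overlapped each other, lay above siSRRM2. The mean ratio to WT was 1.95 in ICM 1-2 (log2 0.81 ± 0.37) and 2.67 in ICM 3-4 (log2 1.18 ± 0.38). ICM 1 alone gave 0.46 and ICM 2 alone 1.09.

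The lipid-anchored decoy DcR1 was the scarcest receptor in WT. TNFRSF10C was at 1.10 and 2.11 CPM in WT, 2.10 and 3.60 CPM in siHMGB2, 5.35 and 17.9 CPM in ICM 1 and 2, and 18.2 and 56.9 CPM in ICM 3 and 4. The libraries labelled siSRRM2 held 28.4 and 28.5 CPM, those labelled siBANF1 2.92 and 17.2 CPM and siCTCF 15.9 and 49.9 CPM. Both ICM sets lay above WT, but siBANF1 1 fell within the siHMGB2 range. WT, siHMGB2, siBANF1 and ICM 1-2 followed one another with overlap, siSRRM2 stood above ICM 1-2, and siSRRM2, siCTCF and ICM 3-4 overlapped in turn. The mean ratio to WT was 7.24 in ICM 1-2 (log2 2.68 ± 0.88) and 23.4 in ICM 3-4 (log2 4.27 ± 0.94), the largest of the receptors in each set when all libraries are used. It also rested on the smallest counts, 37 and 77 in WT 1 and 2, and moved from 3.89 without WT 1 to 4.81 without WT 2 in ICM 3-4. For ICM 1-2 it moved from 2.29 without WT 1, where TNFRSF10A was higher at 2.57, to 3.22 without WT 2, and was 1.67 with ICM 1 alone and 3.27 with ICM 2 alone.

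DcR2, the decoy with a truncated death domain, was the receptor with the most mRNA per length in every library. TNFRSF10D was at 322 and 279 CPM in WT, 352 and 295 CPM in siHMGB2, 664 and 1969 CPM in ICM 1 and 2, and 1271 and 1498 CPM in ICM 3 and 4. The libraries labelled siSRRM2 held 1346 and 1394 CPM, those labelled siBANF1 385 and 1987 CPM and siCTCF 1124 and 1430 CPM. The lowest treated library, siBANF1 1, was still above the highest untreated one, siHMGB2 1. Here too the share of all genes that separate in this way was not computed. WT and siHMGB2 overlapped at the bottom of the order, and siBANF1, siCTCF, ICM 1-2, siSRRM2 and ICM 3-4 followed above them, each overlapping the next. The mean ratio to WT was 4.38 in ICM 1-2 (log2 1.96 ± 0.61) and 4.61 in ICM 3-4 (log2 1.96 ± 0.61). ICM 1 alone gave 1.08 and ICM 2 alone 2.5.

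**Figure D1:**
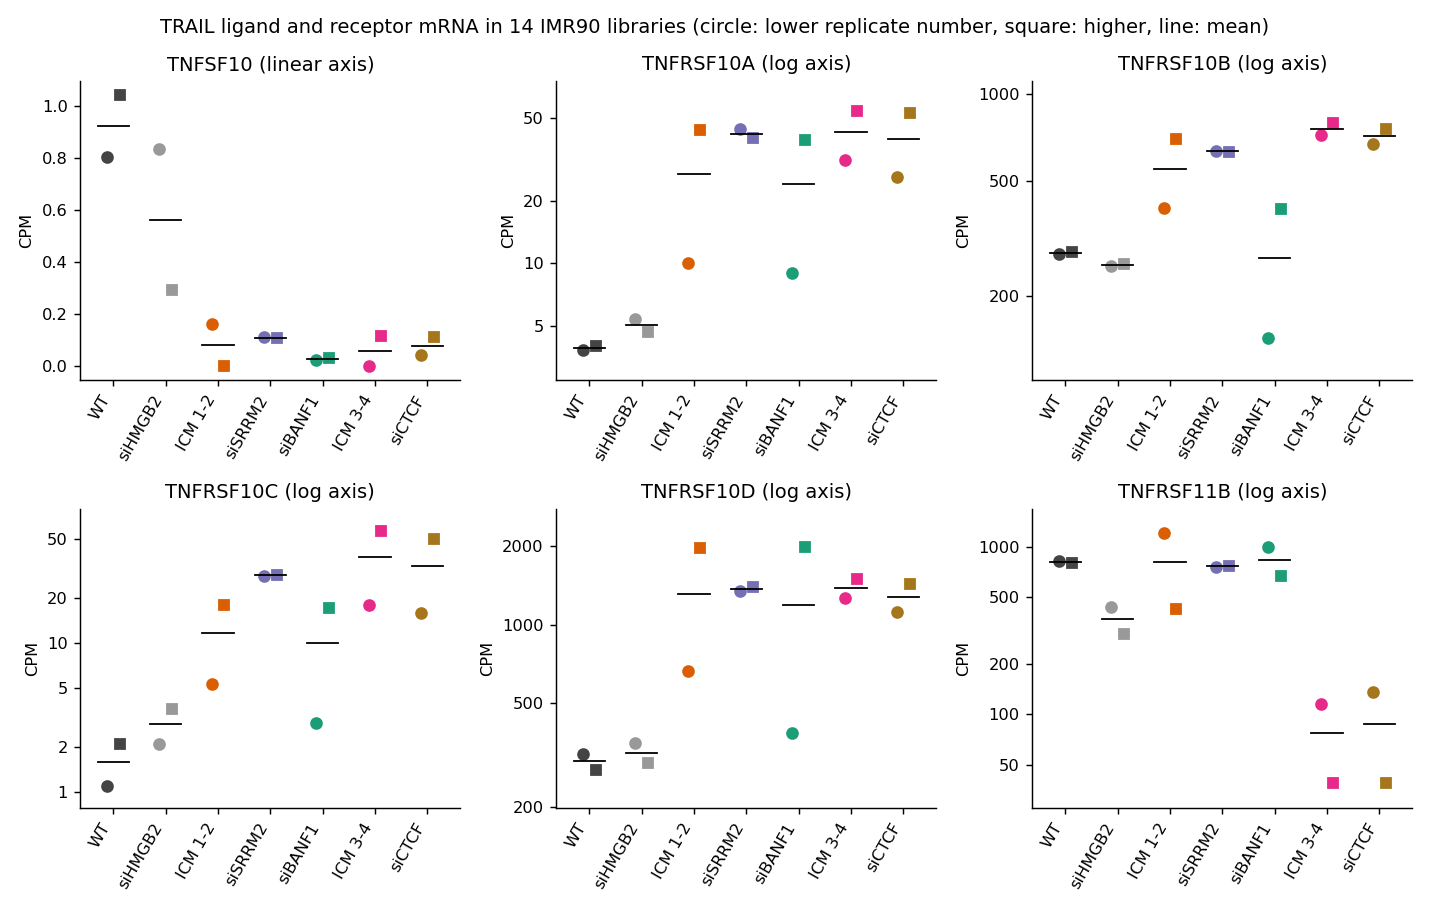
CPM of the ligand, the 4 membrane receptors and osteoprotegerin in each of the 14 libraries, by group, with a circle and a square for the 2 libraries and a line for their mean. The ligand panel has a linear axis and the others log axes. TNFRSF10A and TNFRSF10D are higher in all 10 treated libraries than in any untreated one. The share of all genes that separate in this way was not computed. ICM 1 and siBANF1 1 lie low, and TNFRSF11B is low in ICM 3-4 and siCTCF.

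Non-overlap between 2 libraries and 2 others is common in these data, and the members' counts read against that background. In ICM 1-2 against WT all 4 receptors lay above WT without overlap, as did 32.3% of the 19126 genes tested, and the ligand lay below, as did 25%. In ICM 3-4 against WT the same 4 and 1 were found, beside backgrounds of 42.6% and 33.3%. The median log2 fold change of the 4 receptors was 2.28 in ICM 1-2 and 2.58 in ICM 3-4, and that of all genes 0.10 and -0.02. Because the members were chosen on these values, nothing is read from the counts. Both comparisons use the same WT libraries. With scaling by total gene counts the median of all genes was 0.24 and 0.18. Over the alternatives run, the receptors' log2 values were 0.46 to 3.27 for ICM 1-2 and 1.15 to 4.84 for ICM 3-4. Since every ICM library lay above both WT libraries for each receptor, leaving 1 out could hardly turn a sign. That all values stayed above 0 therefore adds no support.

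**Figure D2:**
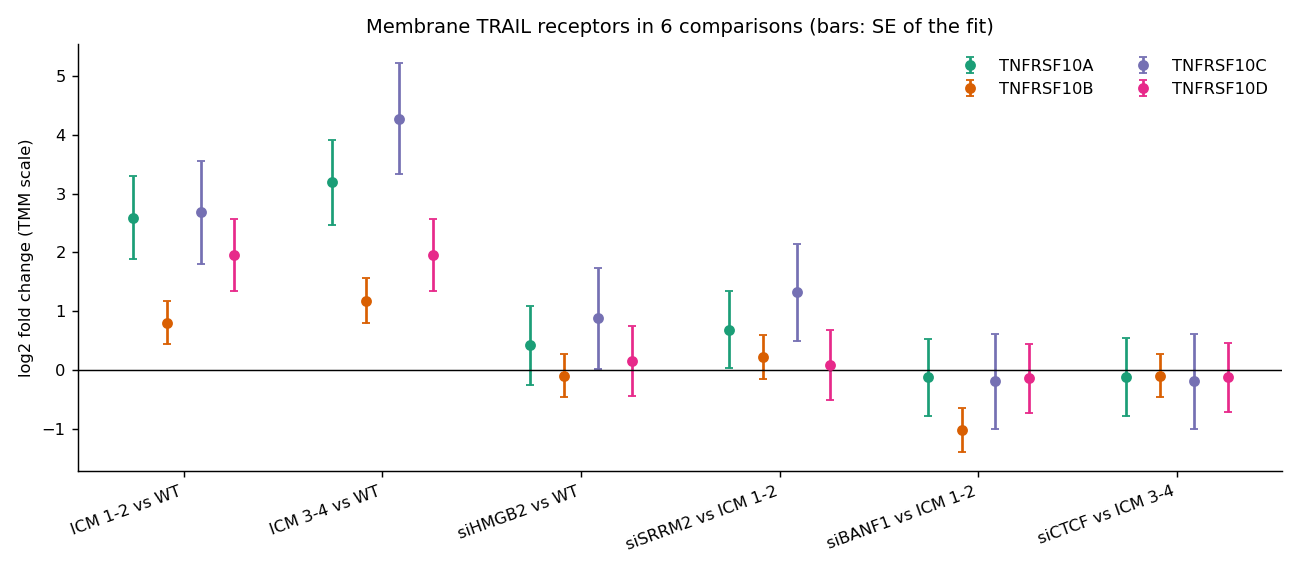
Log2 fold change of the 4 membrane receptors in the 6 comparisons, with bars for the standard error of the fit. All 4 receptors lie above 0 in both ICM comparisons (0.81 to 4.27), and in siBANF1 against ICM 1-2 TNFRSF10B lies at -1.01 with the other 3 between -0.19 and -0.12.

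Per length, the order of the receptors was the same at its top in every library. Counts were divided by the exon length of each gene (TNFRSF10A 2714, TNFRSF10B 4146, TNFRSF10C 1718 and TNFRSF10D 3538 bases) before genes were compared. TNFRSF10D came first, with 52.5% to 82.3% of the summed receptor level, and TNFRSF10B second, with 14.1% to 45.7%. TNFRSF10A made up 0.882% to 3.09% and TNFRSF10C 0.400% to 4.97%, and these 2 changed places. Mean TNFRSF10A was above TNFRSF10C in WT (1.45 against 0.936 CPM per kb) and below it in ICM 3-4 (15.7 against 21.9 CPM per kb), with an SD of 16.0 for the latter.

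The balance of decoy to death receptor mRNA was measured inside each library, which removes scaling between libraries. The per-length ratio of TNFRSF10D to TNFRSF10B was 1.35 and 1.15 in WT and 1.62 and 1.35 in siHMGB2. It was 1.93 and 3.32 in ICM 1 and 2, 2.07 and 2.22 in ICM 3 and 4, 2.49 and 2.59 in the libraries labelled siSRRM2, 3.15 and 5.84 in those labelled siBANF1 and 1.96 and 2.23 in siCTCF. The 10 treated libraries, from 1.93 to 5.84 with a median of 2.36, did not overlap the 4 untreated ones, from 1.15 to 1.62 with a median of 1.35. How often the ratio of any 2 genes separates them in this way was not computed. ICM 1, whose receptor levels were nearest to WT among the ICM libraries, had the lowest treated ratio. The mean ratio in ICM 1-2 was 2.10 times that in WT, 1.55 times with ICM 1 alone and 2.66 times with ICM 2 alone, choices of library made after the data were seen. With both decoys over both death receptors the ranges were 1.89 to 5.16 and 1.14 to 1.59. Decoys thus made up 53.3% to 61.4% of receptor mRNA per length in untreated libraries and 65.4% to 83.8% in treated ones.

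The ratio and the total did not move together in every library. Summed receptor mRNA was 149 to 164 CPM per kb in the untreated libraries, 292 and 751 in ICM 1 and 2, and 555 and 667 in ICM 3 and 4. siBANF1 1 had a total of 149 CPM per kb, at the untreated level, with a ratio of 3.15 that only ICM 2 and siBANF1 2 exceeded. The death receptors also shifted between themselves, with TNFRSF10A at 0.0210 to 0.0325 of TNFRSF10B in untreated and 0.0379 to 0.151 in treated libraries.

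**Figure D3:**
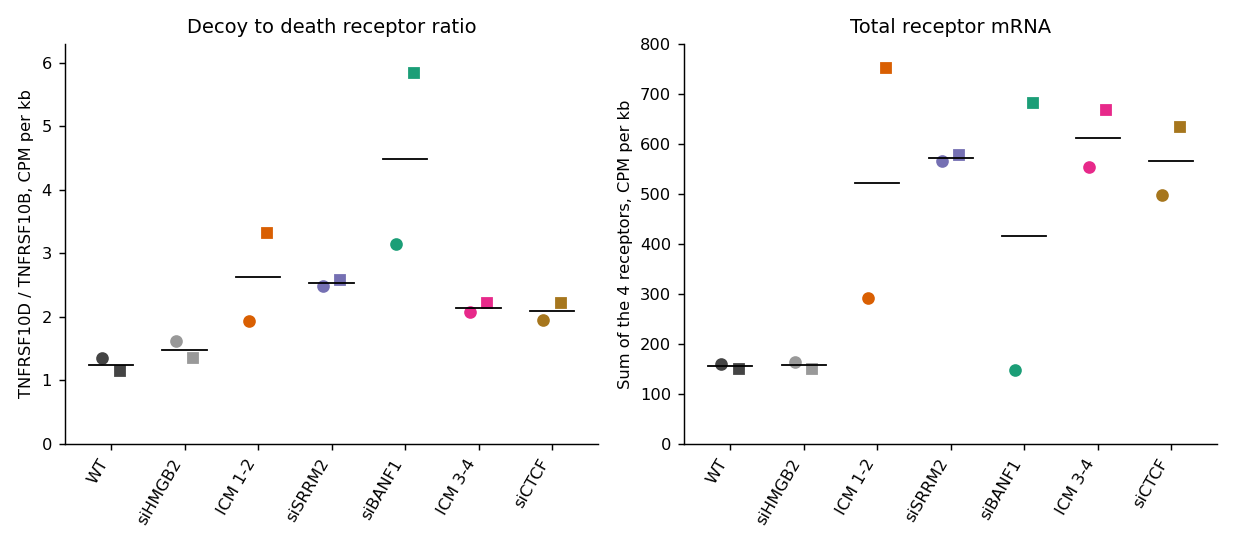
Left, the per-length ratio of TNFRSF10D to TNFRSF10B in each library, and right, the sum of the 4 receptors in CPM per kb, with a line for the group mean. The ratio is 1.15 to 1.62 in untreated and 1.93 to 5.84 in treated libraries, and siBANF1 1 combines a ratio of 3.15 with a total of 149 CPM per kb.

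Knockdown of HMGB2 in untreated cells came with small differences, and 2 of the 4 receptors did not overlap WT. TNFRSF10A lay above WT without overlap (ratio of means 1.29, background 19.7%) and TNFRSF10B below it (0.906, background 29.3%), while TNFRSF10C, TNFRSF10D and the ligand overlapped WT. The log2 differences were 0.42 ± 0.67 for TNFRSF10A, -0.09 ± 0.37 for TNFRSF10B, 0.88 ± 0.86 for TNFRSF10C and 0.16 ± 0.59 for TNFRSF10D. Each was close to or under its standard error in the fit of all 14 libraries. That error draws on the spread in every group, including ICM 1-2 and siBANF1, so it is not the spread of WT and siHMGB2 alone. For TNFRSF11B it was 0.70, against 0.16 in a fit of WT and siHMGB2 alone. The receptors' errors in such a fit are not given here.

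In the libraries labelled siBANF1, which had the lowest SRRM2, only DR5 stood apart from ICM 1-2. TNFRSF10B was at 0.355 of ICM 1 in siBANF1 1 and at 0.573 of ICM 2 in siBANF1 2, and both libraries lay below both ICM libraries (log2 -1.01 ± 0.37). Non-overlap in that direction was found for 8.22% of genes, and in the other direction for 6.24%. The other receptors overlapped ICM 1-2, which says little with ICM 1 and ICM 2 so far apart. TNFRSF10A was at 0.898 and 0.903 of the same-numbered ICM library, alike for both numbers. TNFRSF10C, at 0.545 and 0.960, and TNFRSF10D, at 0.581 and 1.01, differed between the numbers. The log2 difference of TNFRSF10B ranged from -1.81 to -0.49 over the alternatives, while those of the other 3 took both signs. TNFRSF10B in the libraries labelled siBANF1 spanned 143 to 399 CPM, a wider relative range than in ICM 1-2.

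In the libraries labelled siSRRM2 the 2 replicates nearly coincided and lay between or near the ICM libraries. TNFRSF10C was above both ICM 1 and ICM 2, at 2.45 times their mean (log2 1.32 ± 0.82, background 20.5% upwards and 21% downwards). Against ICM 3-4 as controls the value was -0.27, so its direction depends on which ICM libraries serve as controls. TNFRSF10A, TNFRSF10B and TNFRSF10D overlapped ICM 1-2, with log2 values of 0.69 ± 0.66, 0.22 ± 0.37 and 0.09 ± 0.59. Relative to ICM 1 the siSRRM2 1 library was higher for each receptor, by 1.57 to 5.32 times, and relative to ICM 2 the siSRRM2 2 library was at 0.708 to 1.59.

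In siCTCF none of the 5 members separated from ICM 3-4, where 7.52% of genes separated upwards and 9.55% downwards. Set side by side in the order of their numbers, not as pairs, the receptors were at 0.824 to 0.936 of ICM 3 in siCTCF 1 and at 0.877 to 0.988 of ICM 4 in siCTCF 2, and the log2 differences were -0.19 to -0.09 with standard errors of 0.37 to 0.81. CTCF itself was at 75.4% in siCTCF 1 and 25.0% in siCTCF 2.

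Osteoprotegerin, the soluble TRAIL receptor, differed between the 2 ICM sets. TNFRSF11B was at 819 and 801 CPM in WT, 436 and 300 CPM in siHMGB2, 1201 and 425 CPM in ICM 1 and 2, and 115 and 38.9 CPM in ICM 3 and 4. The libraries labelled siSRRM2 held 758 and 767 CPM, those labelled siBANF1 989 and 672 CPM and siCTCF 137 and 39.0 CPM. It fell in ICM 3-4 against WT (log2 -3.61 ± 0.77, edgeR quasi-likelihood adjusted p = 0.00783), a call that 10 of 11 alternatives kept, the fit without ICM 4 being the exception at -2.99. In ICM 1-2 the difference was -0.09 ± 0.69 (edgeR adjusted p = 0.945), and the difference between the sets was itself called (log2 -3.51 ± 0.77, edgeR adjusted p = 0.0116), as for 19.5% of all genes. In siHMGB2 the value was -1.09 ± 0.70 in the fit of all libraries (edgeR adjusted p = 1.0) and -1.08 ± 0.16 in a fit of WT and siHMGB2 alone (edgeR adjusted p = 1.19e-06). RANKL (TNFSF11), its bone ligand, was not tested, with a mean of 0.0447 CPM in WT and no counts in the other 12 libraries.

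The transcripts whose profile over the 14 libraries was most like each receptor's are given as a description, among 13122 genes, with Pearson's r of log2 CPM. All points share the 2 sets and the gap between treated and untreated libraries, which raises r for any gene that differs between them. TNFRSF10A was most like TNPO3 (r = 0.993), ZNF329 (0.991) and LOC105374985 (0.979). TNFRSF10B was most like USP30 (0.963), BTG2 (0.956) and DHX35 (0.951). TNFRSF10C was most like INKA2 (0.980), TNFRSF10A (0.963) and ZNF79 (0.957), and TNFRSF10D like ZNF329 (0.984), SEC22A (0.979) and TRIT1 (0.977). Among the receptors, TNFRSF10A, TNFRSF10C and TNFRSF10D were closer to each other by r (0.894 to 0.965) than any was to TNFRSF10B (0.788 to 0.831). Ranks did not keep this grouping. Spearman's rho of TNFRSF10C was 0.829 with TNFRSF10B and 0.785 with TNFRSF10D. With CDKN1A r was 0.957 for TNFRSF10A, 0.956 for TNFRSF10C, 0.909 for TNFRSF10D and 0.852 for TNFRSF10B. By rho TNFRSF10D was the least like CDKN1A (0.675), below TNFRSF10B (0.807). For DDIT3 r was 0.674 to 0.781, lowest for TNFRSF10B, whose rho with DDIT3 was the highest of the receptors (0.815).

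The neighbours of the cluster did not share one direction. Of the 3 nearest protein-coding genes on each side, 5 were tested. The share of all genes called was 13.5% in ICM 1-2 against WT and 30.3% in ICM 3-4 against WT. In ICM 1-2 against WT only EGR3, an immediate-early transcription factor to the left, was called, and it fell (log2 -4.90 ± 1.22, edgeR adjusted p = 0.0266). In ICM 3-4 EGR3 fell (log2 -4.56 ± 1.23, edgeR adjusted p = 0.0203). The adjoining genes on either flank rose in ICM 3-4, RHOBTB2, whose exons overlap those of TNFRSF10B by 67 bases, by 0.76 ± 0.21 (edgeR adjusted p = 0.0234) and CHMP7, a nuclear envelope repair factor, by 1.62 ± 0.41 (edgeR adjusted p = 0.0152). R3HCC1 was at 0.00 ± 0.23 and the collagen crosslinker LOXL2 at -2.39 ± 1.22, neither called. No neighbour was called in a knockdown comparison. There 0.178% of all genes were called in the libraries labelled siSRRM2 and 0% in the other knockdowns, so nothing is read from this. The divergent non-coding gene TNFRSF10A-DT was at 0.209 to 0.412 CPM in untreated and 0.507 to 1.99 CPM in treated libraries.

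Downstream of the receptors, 78 genes of the pathway and its known regulators were listed, and 71 of them were tested. In ICM 1-2 against WT 7 of the 71 were called, 3 higher and 4 lower, where 13.5% of all genes were called (6.63% higher and 6.87% lower). In ICM 3-4 against WT 34 of the 71 were called, 17 in each direction, where 30.3% of all genes were called (14.3% higher and 16% lower). These shares of all genes are also the background for the counts of each list below. The median log2 fold change of the 71 was 0.09 in ICM 1-2 and 0.32 in ICM 3-4. The first count was 3 without WT 1 and without WT 2, and 15 without ICM 1. The second was 13 without WT 1, 12 without WT 2, 16 without ICM 3 and 12 without ICM 4. Leaving the ICM 1-2 and siBANF1 libraries out of the fit gave 49, a setting added after the data were seen.

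Of the 7 tested genes of the complex that forms on DR4 and DR5 none was called in ICM 1-2 and 1 in ICM 3-4, CFLAR, whose product c-FLIP blocks caspase-8. CFLAR was at 144 and 146 CPM in WT, 144 and 92.4 CPM in ICM 1 and 2, and 77.7 CPM in both ICM 3 and ICM 4, where it fell (log2 -1.14 ± 0.38, edgeR adjusted p = 0.0421). That call was kept by 4 of 11 alternatives, and its direction by all 11. FADD, the adaptor, was at 43.6 and 42.6 CPM in WT, 33.7 and 66.8 CPM in ICM 1 and 2 and 79.6 and 58.4 CPM in ICM 3 and 4. CASP8, the initiator caspase, was at 20.3 and 20.6 CPM in WT, 9.38 and 18.9 CPM in ICM 1 and 2 and 15.9 and 13.5 CPM in ICM 3 and 4. Neither was called in any of the 6 comparisons in the edgeR fit of all 14 libraries. In a fit of the compared libraries alone, CASP8 fell in ICM 3-4 against WT (log2 -0.66 ± 0.22, edgeR adjusted p = 0.0395). CASP10, a second initiator, was at 0.0596 to 0.519 CPM over the 14 libraries. Of the 4 genes for receptor glycosylation and ubiquitination none was called in either ICM comparison.

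The mitochondrial arm, through which caspase-8 amplifies the signal, had 5 of 8 genes called in ICM 3-4, 4 higher and 1 lower, and none in ICM 1-2. BAK1, a pore-forming protein of the outer membrane, rose from 18.9 ± 0.234 to 85.7 ± 0.183 CPM (mean ± SD, n = 2 each; log2 1.94 ± 0.46, edgeR adjusted p = 0.0125). HTRA2 and DIABLO, which counter the inhibitors of apoptosis, rose by log2 1.63 ± 0.55 (edgeR adjusted p = 0.0452) and 1.44 ± 0.49 (edgeR adjusted p = 0.0461). BID, the link between caspase-8 and mitochondria, was at -0.94 ± 0.33 and missed the threshold (edgeR adjusted p = 0.0534). Of the 5 executioner genes 1 was called in ICM 3-4, DFFA (log2 1.35 ± 0.42, edgeR adjusted p = 0.0354), the inhibitor of the apoptotic nuclease.

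Among the 4 inhibitors of apoptosis 1 was called in ICM 1-2 and 2 in ICM 3-4, all lower. BIRC5 (survivin), which is also a mitotic protein, fell from 17.7 ± 1.07 CPM in WT to 0.389 ± 0.0292 CPM in ICM 1-2 (log2 -5.63 ± 0.47, edgeR adjusted p = 0.000115) and to 0.260 ± 0.190 CPM in ICM 3-4 (log2 -6.31 ± 0.50, edgeR adjusted p = 0.000139). The proliferation marker MKI67 moved with it, from 30.5 to 38.8 CPM in untreated libraries to 0 to 1.09 CPM in treated ones. BIRC3 fell in ICM 3-4 (log2 -2.05 ± 0.69, edgeR adjusted p = 0.0441). XIAP, the direct caspase inhibitor, was at 0.58 ± 0.23 in ICM 1-2 (edgeR adjusted p = 0.113) and 0.49 ± 0.23 in ICM 3-4 (edgeR adjusted p = 0.123).

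Of 7 other death receptors and ligands tested, none was called in ICM 1-2 and 5 in ICM 3-4, 1 higher and 4 lower. In a fit of the compared libraries alone all 7 were called in ICM 3-4, 3 higher and 4 lower. That fit called 8993 of all 19126 genes. TNFRSF21 (DR6) fell from 207 ± 14.7 to 15.2 ± 1.90 CPM (log2 -4.0 ± 0.95, edgeR adjusted p = 0.0122) and TNFRSF1B, the second TNF receptor, from 15.5 ± 0.693 to 0.672 ± 0.114 CPM (log2 -4.76 ± 1.28, edgeR adjusted p = 0.0198). TNFSF15, a TNF-family ligand, had 1078 counts in WT and none in ICM 3-4, which makes it at least 252.9-fold lower with a floor of 3 counts over the group (edgeR adjusted p = 0.0117). FAS, the receptor nearest in function to DR4 and DR5, was at 49.8 and 57.3 CPM in WT, 66.6 and 245 CPM in ICM 1 and 2 and 121 and 208 CPM in ICM 3 and 4. Its ICM libraries lay above WT in both sets, but it was not called (log2 1.37 ± 0.70 and edgeR adjusted p = 0.211 in ICM 1-2, edgeR adjusted p = 0.155 in ICM 3-4).

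The DNA damage response list had 4 of 15 genes called in ICM 1-2, 3 higher and 1 lower, and 5 of 15 in ICM 3-4, all higher. Of all genes, 13.5% and 30.3% were called in these comparisons, 6.63% and 14.3% higher. MDM2, a ubiquitin ligase induced by DNA damage, was at 135 and 149 CPM in WT, 430 and 1097 CPM in ICM 1 and 2, and 369 and 586 CPM in ICM 3 and 4. It rose by log2 2.26 ± 0.43 (edgeR adjusted p = 0.00835) and 1.5 ± 0.42 (edgeR adjusted p = 0.0229). CDKN1A rose in ICM 3-4 by 3.06 ± 0.73 (edgeR adjusted p = 0.0127) and was at 1.64 ± 0.69 in ICM 1-2 (edgeR adjusted p = 0.139). PLK3, a stress-responsive kinase, and FDXR, a mitochondrial reductase, rose in ICM 3-4 by 1.99 ± 0.25 (edgeR adjusted p = 0.000813) and 1.79 ± 0.31 (edgeR adjusted p = 0.00325).

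The list of CHOP and stress of the endoplasmic reticulum had 1 of 10 genes called in ICM 1-2, lower, and 8 of 10 in ICM 3-4, 6 higher and 2 lower. DDIT3 (CHOP) was at 28.6 and 25.2 CPM in WT, 27.9 and 248 CPM in ICM 1 and 2, and 321 and 389 CPM in ICM 3 and 4, where it rose by log2 3.47 ± 0.87 (edgeR adjusted p = 0.0150). ICM 1 lay at the WT level and ICM 2 far above it, so ICM 1-2 was not called (log2 2.16 ± 0.82, edgeR adjusted p = 0.103). PPP1R15A, a target of CHOP, rose in ICM 3-4 from 145 ± 8.90 to 1424 ± 111 CPM (log2 3.06 ± 0.64, edgeR adjusted p = 0.00723), while CHAC1, another target, fell from 123 ± 4.27 to 8.92 ± 4.59 CPM (log2 -4.01 ± 0.96, edgeR adjusted p = 0.0129). CEBPB, a transcription factor that pairs with CHOP, fell in ICM 1-2 (log2 -2.73 ± 0.40, edgeR adjusted p = 0.00254) and in ICM 3-4 (log2 -2.12 ± 0.39, edgeR adjusted p = 0.00398).

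The interferon list had 1 of 10 genes called in ICM 1-2 and 6 of 10 in ICM 3-4, all lower. IFIT1 fell from 7.0 ± 0.00436 CPM in WT to 1.05 ± 0.0992 CPM in ICM 1-2 (log2 -2.86 ± 0.69, edgeR adjusted p = 0.0235) and 0.451 ± 0.191 CPM in ICM 3-4 (log2 -4.18 ± 0.76, edgeR adjusted p = 0.00396). IFIT2 and IFI44 fell in ICM 3-4 (log2 -2.27 ± 0.64, edgeR adjusted p = 0.0234, and log2 -2.29 ± 0.46, edgeR adjusted p = 0.00606).

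**Figure D4:**
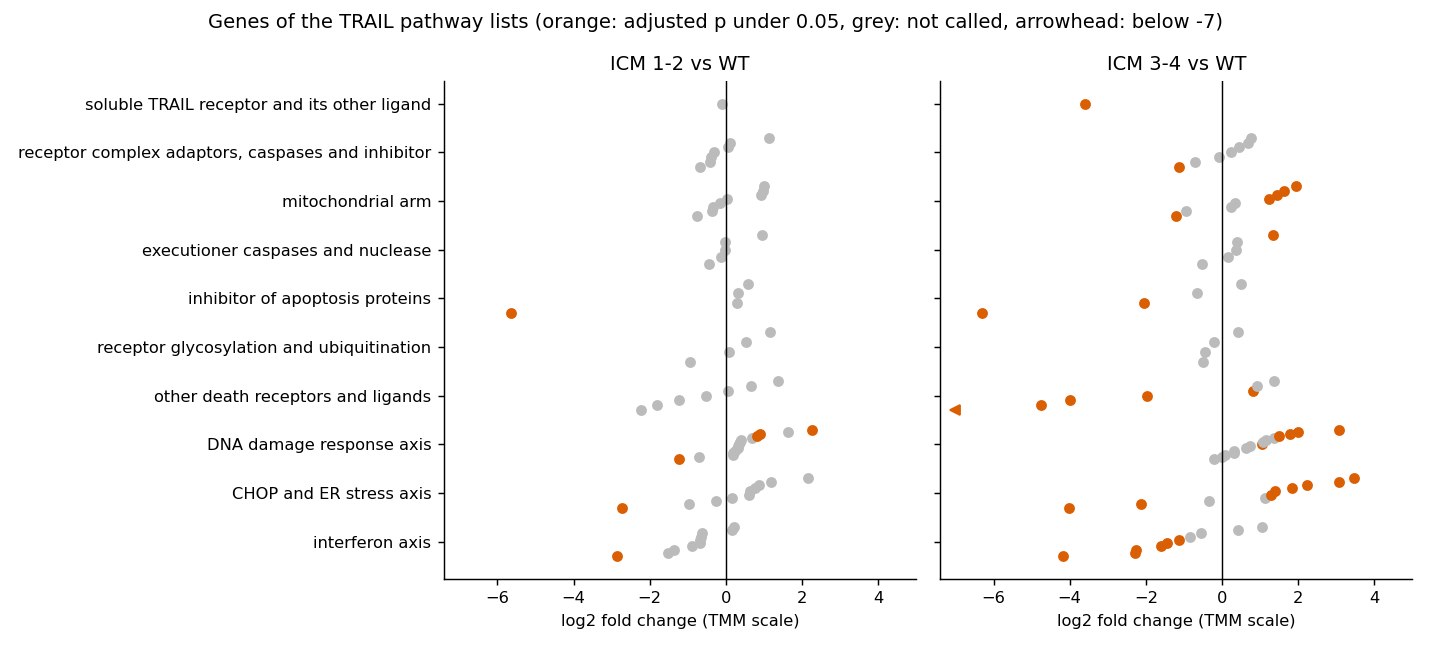
Log2 fold change of the 71 tested pathway genes in ICM 1-2 and ICM 3-4 against WT, 1 row per list, with orange for genes called at an adjusted p under 0.05 and grey for the rest; the arrowhead is TNFSF15, without counts in ICM 3-4. In ICM 1-2 7 genes are called, and in ICM 3-4 34 are, including 6 lower interferon genes and 8 of the 10 CHOP genes.

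No pathway gene was called in the 4 knockdown comparisons with edgeR when all libraries entered the fit. At an unadjusted p under 0.05 there were 5 in siHMGB2, 15 in the libraries labelled siSRRM2, 4 in those labelled siBANF1 and none in siCTCF, of 71 tested. The same threshold held 4.75%, 11.3%, 3.09% and 0.654% of all genes in these comparisons. With the adjusted p, 0.178% of all genes were called in the libraries labelled siSRRM2 (0.0993% higher and 0.0784% lower) and 0% in the other 3 comparisons. DESeq2 called 1, 7, 1 and 0 pathway genes. When WT and siHMGB2 alone entered the fit, 22 pathway genes were called, 8 higher and 14 lower, beside 10.7% of all genes (6.03% higher and 4.71% lower). In that fit CASP8 fell (log2 -0.57 ± 0.16, edgeR adjusted p = 0.0108), while FAS rose by 0.49 ± 0.14 (edgeR adjusted p = 0.0122).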

How the data were processed

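Whole-number read counts per gene symbol were used as deposited, 1 file per library; STAR 2.7.3a, HTSeq 0.12.4, DESeq2 1.36.0 and hg38 are named, without roles, in the submitters' processing notes, and the annotation and strand setting are not given in the sources used here. Total RNA was sequenced from TruSeq libraries in paired ends, per the labels' protocols. The 5 rows for reads given to no gene (12.8% to 41.8% of reads) were left out. Genes were kept by filterByExpr (19126), scaled by TMM and fitted with edgeR 4.0.16 (quasi-likelihood F-test, R 4.3.3) over all 14 libraries with a mean for each of 7 cells, leaving 7 residual degrees of freedom. Adjustment was Benjamini-Hochberg over all genes tested, at 0.05. CPM uses total gene counts, per-length levels the GENCODE v29 exon union, and likeness TMM-scaled log2 CPM with a prior count of 2. Coordinates and sequence are from RefSeq GRCh38.p14, in which 5 of 5 members matched.

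The members and the gene lists were chosen with earlier results of these data known. The text names the members, TNFRSF11B, a fixed panel of 11 genes, up to 3 called genes per list with the largest change at a mean of at least 1 CPM, the 3 most alike genes and the cluster's 3 neighbours on each side. MKI67, TNFRSF10A-DT, TNFSF11 and, for siHMGB2 in its own fit, CASP8 and FAS were named with their values seen. Some genes of the panel and lists count in the totals but are not reported here by name, nor is 1 of the 4 motifs searched. Alternatives were other scalings and filters, DESeq2 1.42.0, fits to the compared libraries, a replicate block, other ICM controls, an adjusted p under 0.01 and each library left out. The fit was tested on simulated data.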

Additional observations from a re-analysis of the deposited data

Results flagged for a closer look

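The responses of 7 named pathway genes differed between the 2 ICM sets. Since both are set against the same WT libraries, the test is that of ICM 3-4 against ICM 1-2, and the set cannot be told apart from other differences between these libraries. In all, 17 of 71 pathway genes differed in this edgeR test, beside 19.5% of all genes tested. Lower in ICM 3-4 were TNFRSF11B (adjusted p = 0.0116), BIRC3 (adjusted p = 0.0355), CHAC1 (adjusted p = 0.0221), TNFRSF1B (adjusted p = 0.0261) and TNFSF15 (adjusted p = 0.0383). Higher were PLK3 (log2 1.75 ± 0.25, adjusted p = 0.00202) and FDXR (log2 1.47 ± 0.31, adjusted p = 0.00975).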

How the results depend on the processing

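With 2 libraries per group, the counts of pathway genes called moved by over 1.5 times with some choices, most often for ICM 1-2, and the cause was not tested. For ICM 1-2 against WT the count of 7 became 13 with every gene that had a count, 1 with the compared libraries alone, 12 with DESeq2, 4 at an adjusted p under 0.01 and 3 to 15 with 1 library left out. For ICM 3-4 against WT the count of 34 became 11 at an adjusted p under 0.01 and 12 to 16 with 1 library left out. The split of 17 higher and 17 lower became 22 and 13 with scaling by total counts and 20 and 15 with relative log expression. For siHMGB2 the count of 0 became 1 with every gene that had a count, 22 with the compared libraries alone, 4 without the ICM 1-2 and siBANF1 libraries and 1 with DESeq2. With every gene that had a count, siSRRM2 gave 8 and siBANF1 1, and with DESeq2 7 and 1. With the other set's ICM libraries as controls siSRRM2 gave 18, siBANF1 12 and siCTCF 17.

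With those controls TNFRSF10C in siSRRM2 turned from 1.32 to -0.27, and TNFRSF11B from -0.13 to 3.38 in siSRRM2 and from 0.19 to -3.32 in siCTCF. Over all alternatives, 276 values of the receptors' log2 fold changes stayed within the spread of the libraries, with either sign where they lay near 0. This count does not measure stability, because leaving out 1 of 2 libraries can seldom move a value beyond their SD. TNFRSF10A in siSRRM2 against ICM 1-2 ranged from 0.02 to 2.0 and still stayed within that spread. A further 7 values moved beyond it, among them TNFRSF10B and TNFRSF10C in siCTCF with ICM 1-2 as controls (0.28 and 1.4, from -0.09 and -0.19).

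Same-numbered libraries deviated together with r = 0.20 for WT and siHMGB2, -0.15 for WT and ICM 1-2, 0.03 for ICM 1-2 and siSRRM2 and 0.85 for ICM 1-2 and siBANF1. With 2 numbers these were not taken as pairs. A replicate block gave 6 calls for ICM 1-2, 0 for siHMGB2, 0 for siSRRM2 and 0 for siBANF1, and the crossed pairing gave 8 for ICM 1-2. For ICM 3-4 against WT and siCTCF against ICM 3-4 no paired fit was made, because their labels share no replicate number. Depth limits the ligand, with at most 38 counts in a library.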
